A study of Rattus norvegicus with 30 samples.

Results

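The time dependence of the response to 1000 uM clofibrate was measured in cultured rat liver cells. For each probe set, the log2 difference between treated and solvent cultures at 24 h was subtracted from the same difference at 48 h. A value above 0 means that the treated cultures stood higher, relative to solvent, at 48 h than at 24 h, and 1 log2 unit is a doubling. The contrast uses 20 of the 30 arrays of the series, 5 in each of 4 groups: 1% DMSO for 24 h, 1000 uM clofibrate for 24 h, 1% DMSO for 48 h and 1000 uM clofibrate for 48 h. The other 10 arrays, of cultures given 60 uM clofibrate for 24 or 48 h, entered the same fit and share its estimate of the spread. The cells were commercially obtained, cryopreserved primary hepatocytes of male Sprague Dawley rats. After thawing they were plated on collagen, covered with Matrigel and kept until the third culture day, when dosing began, with DMSO as the vehicle in all groups. The labels describe the 5 arrays of a group as separate cultures and do not name the animals behind them, so the p-values measure the spread between cultures.

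Clofibrate is a fibrate, a lipid-lowering drug that activates PPAR-alpha. This nuclear receptor pairs with RXR on paired hexamer sites in DNA and in rodent liver raises the enzymes that oxidise fatty acids in peroxisomes, mitochondria and the endoplasmic reticulum. ATF4, a second regulator that recurs in the results, is a transcription factor whose protein is made when translation is slowed by stress or amino acid shortage, and it raises the genes for amino acid synthesis, uptake and tRNA charging. Cultured hepatocytes also change with time on the plate without any drug, so each effect was read against solvent cultures harvested at the same hour.

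The measured quantity is the MAS5 signal, a probe set's brightness on a linear scale. It was tested for 18625 of 31042 probe sets, those with a mean log2 signal above the 40th percentile, and these represent 10627 genes by their brightest probe set. The number of arrays limits the precision. Arrays of a group correlated at 0.964 to 0.979, and the lowest correlation between groups was 0.93. The 3'/5' signal ratio of actin, a measure of RNA integrity, lay between 2.11 and 2.72 in the 20 arrays. Replicate 1 of DMSO at 48 h had a residual SD of 0.336, the highest of the 20 arrays, and 1424 probe sets passed without it, against 1544 with it. The 5 hepatocyte markers on the array had mean signals of 58463 to 87492 in the 4 groups. Of other liver cells, the 12 Kupffer cell and macrophage markers on the array summed to 14203 to 15273 in DMSO and 11136 to 12995 in treated cultures at 24 h. At 48 h the sums were 12141 to 13233 and 8521 to 9836. The brightest of these markers made up much of each sum, with group means of 7584 and 5080 at 24 h and 7598 and 4198 at 48 h. Against DMSO at 48 h, C1qb, Lyz2 and Fcer1g were lower and Tyrobp higher, and no other tested Kupffer marker passed by limma. Adgre1 was under the floor in all 4 groups. The floor, a signal of 79, is the highest group mean of the bacterial TrpnX control sets.

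The effect of the drug differed between the times in 1149 of 10627 genes (10.8%), of which 560 (5.27%) stood relatively higher and 589 (5.54%) relatively lower at 48 h (limma, adjusted p under 0.05). Over probe sets the count was 1544 of 18625 (8.29%), 776 (4.17%) higher and 768 (4.12%) lower. Against DMSO, 3602 genes (33.9%) passed at 24 h and 4667 (43.9%) at 48 h. Genes were classed by whether the absolute effect was larger (grew) or smaller (faded) at 48 h, and by the sign of the larger effect. Most time-dependent effects were larger at the later time: rises that grew made up 396 genes (34.5%) and falls that grew 472 (41.1%). Rises that faded were 91 genes (7.92%), falls that faded 117 (10.2%), and 73 genes (6.35%) reversed, passing in opposite directions at the 2 times. Of these 73, 26 were higher at 24 h and lower at 48 h, and 47 were lower and then higher. More genes changed sign without passing at both times: effects had opposite signs in 381 of the 1149. Among them were 104 of the 396 rises that grew and 112 of the 472 falls that grew. In those 2 classes 188 and 242 genes passed against DMSO at 48 h only. The shifts were mostly small, with a median absolute difference of 0.42 log2 units, and 53 genes shifted at least 2-fold. On the linear scale the gap between the mean signals was larger at 48 h in 908 of the 1149 genes. These included 394 of the rises and 466 of the falls that grew, and 3 of the rises and 4 of the falls that faded. The classes come from the same signals, so this count restates them on another scale.

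The balance of directions depended on the scaling of the arrays. Of the probe sets that passed, 50.3% stood higher at 48 h with the deposited scaling, 30.6% after centring each array on its median and 24.4% after scaling to the spiked-in control RNAs, while the other alternatives gave 48.2% to 50.7%. Spike-in scaling moved the median effect over all probe sets from -0.051 to 0.18 at 24 h and from -0.042 to 0.11 at 48 h, and the median time dependence from 0.00036 to -0.084. Under it 480 probe sets passed, 117 of them higher and 363 lower. The spiked-in signal itself varied within a group, for instance from 10.1 to 10.5 log2 units in DMSO at 48 h. A lower count after this scaling can come from a wider spread or from smaller shifts, and which applies was not tested. No probe set passed in opposite directions under the deposited scaling and any alternative, with 0 such calls in each.

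**Figure D1:**
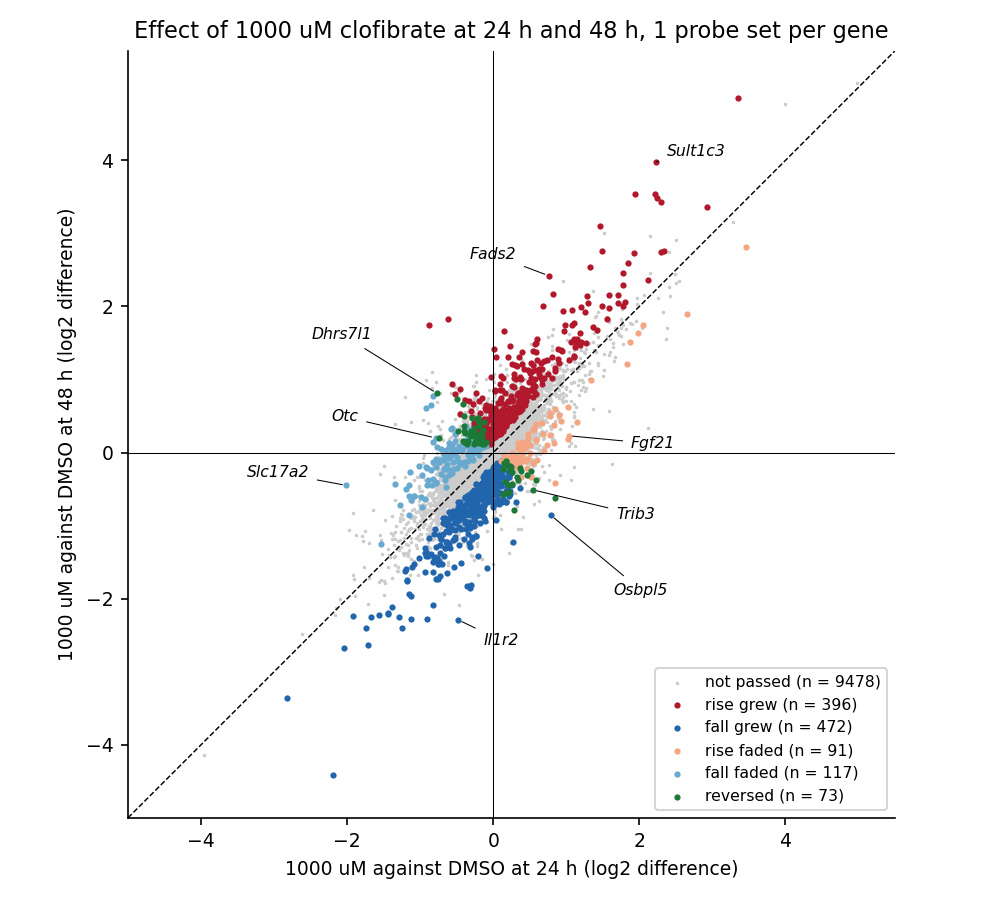
Each point is 1 gene, with its log2 difference between 1000 uM clofibrate and DMSO at 24 h on the x axis and at 48 h on the y axis, coloured by class where the time dependence passed. Genes on the diagonal had the same effect at both times. The axes end before Acot1, which lies at 10.5 and 8.48. Most coloured points lie farther from 0 at 48 h than at 24 h.

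Among PPAR-alpha targets the strongest inductions were already in place at 24 h, and a subset went on rising. Fabp1, the liver fatty acid-binding protein that carries fatty acids and fibrates to the receptor, was the clearest. Its signal was 7942, 7798, 7595, 7745 and 7687 in the DMSO arrays and 41670, 34731, 39690, 39742 and 36043 in the treated arrays at 24 h. The 48 h readings were 6990, 6361, 7413, 8353 and 7908 in DMSO and 79342, 80576, 78241, 81420 and 78074 with the drug. Treated and DMSO arrays did not overlap at either time, the DMSO level stayed near its 24 h value, and every treated array at 48 h lay above every treated array at 24 h. The induction grew from 4.94-fold to 10.8-fold, a time dependence of 1.13 ± 0.08 (SE) log2 units (limma adjusted p = 2.22e-11). The highest signal of any probe set on an array lay between 95378 and 118603, above all the Fabp1 values. Whether signals as bright as these still rise in step with the RNA was not tested.

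Other carriers and enzymes of the pathway also gained. Aqp7, a glycerol channel, went from 1.93 to 2.73 log2 units above DMSO (adjusted p of the difference = 7.42e-07). Retsat, a retinol saturase, went from 1.49 to 2.01 (adjusted p = 2.46e-07). Acot8, a peroxisomal thioesterase, went from 1.2 to 1.99 (adjusted p = 1.73e-05). Crat, which moves acetyl groups onto carnitine, went from 2.34 to 2.76, and Decr2, which reduces unsaturated intermediates in the peroxisome, from 1.58 to 1.98; both calls were lost under spike-in scaling.

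Some of the largest inductions did not pass the test of time dependence. Ehhadh, the peroxisomal bifunctional enzyme, stood 4.98 log2 units above DMSO at 24 h and 5.06 at 48 h, a difference of 0.08 ± 0.11 (SE) (adjusted p = 0.761). Pdk4, the kinase that switches off pyruvate dehydrogenase, stood at 3.28 and 3.16 (adjusted p = 0.512). Both arms of Ehhadh rose over time, by 0.72 log2 units with the drug and by 0.64 without it. Cpt1a, which admits fatty acids to mitochondria, had 1.77 and 2.05 (adjusted p = 0.289), but its dimmer probe set passed with a difference of 0.55 (adjusted p = 0.0142). Plin2, a lipid droplet coat protein, had 0.47 and 0.54, and there the dimmer probe set passed in the fading direction with -0.34 (adjusted p = 0.0384). These 4 genes were chosen after their values were seen. Acot1, a cytosolic thioesterase, did not pass (-2.02 ± 0.66 (SE), adjusted p = 0.0522): its DMSO arrays at 24 h read 92, 12, 10, 20 and 80, with a mean under the floor, and its treated arrays 42829, 38384, 41544, 41668 and 41160 at 24 h and 52504, 51700, 52021, 54942 and 50960 at 48 h.

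A few inductions shrank. Cyp4a1, the omega-hydroxylase that is a standard marker of PPAR-alpha activation, read 7735, 5566, 6410, 5647 and 6580 in DMSO and 71718, 66669, 70752, 67878 and 73139 in treated cultures at 24 h. By 48 h the signals were 11724, 8707, 10785, 13338 and 15208 in DMSO and 80665, 84546, 79904, 81776 and 83955 with the drug. The groups stayed far apart at both times, and the change over time that passed was in DMSO, which rose by 0.89 log2 units (adjusted p = 3.26e-08) against 0.23 with the drug (adjusted p = 0.0824). The induction thus went from 11-fold to 7-fold (-0.66 ± 0.13 (SE) log2 units, adjusted p = 0.00108). Whether the treated signals, about as bright as those of Fabp1, could still rise in step with the RNA was not tested. Fgf21, a fasting hormone made by the liver that answers to both PPAR-alpha and ATF4, read 2346, 2367, 2617, 2168 and 3087 in DMSO and 5721, 5051, 5422, 4867 and 4552 in treated cultures at 24 h, with no overlap. After 48 h its values were 2277, 1565, 2173, 3618 and 3753 in DMSO and 3231, 2991, 3645, 2375 and 2783 with the drug, and the ranges overlapped. Its effect fell from 1.03 to 0.23 log2 units (adjusted p of the difference = 0.0159).

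Counted by list, 8 of 17 measured peroxisomal beta-oxidation genes stood higher at 48 h and 0 lower, and of 22 mitochondrial beta-oxidation genes 11 higher and 0 lower, against 5.27% and 5.54% over all genes. The median time dependence was 0.16 and 0.26, beside -0.0062 over all genes. Acadm and Acads, acyl-CoA dehydrogenases for medium and short chains, went from 1.78 to 2.3 and from 0.73 to 1.27. Echs1, the enoyl-CoA hydratase, was lower at 24 h (-0.36) and higher at 48 h (0.12). After median centring the counts higher were 5 and 6, and after spike-in scaling 2 and 1. The medians were 0.11 and 0.2 after median centring and 0.08 and 0.17 after spike-in scaling. Other PPAR-alpha targets were mixed, with 7 of 35 higher and 5 lower, and 4 and 2 after spike-in scaling. Fabp2, the intestinal fatty acid-binding protein, reversed from -0.42 to 0.66, and Acsl4, a ligase for long polyunsaturated fatty acids, fell further from -0.25 to -0.87. Peroxisome biogenesis had 2 of 20 higher, and the list of omega-hydroxylases and thioesterases had 1 of 14 higher and 1 lower.

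The Fabp1 promoter holds the paired hexamer that PPAR-alpha and RXR bind, and is shown because Fabp1 had the smallest p among rises that grew in the fatty acid lists. The sequence is RefSeq's GRCr8 promoter upstream of the start site (chr4:104749223-104749315, plus strand), with the match to AGGNCANAGGNCA in capitals. The match lies on the opposite strand and begins 77 bases before the start.
Fabp1: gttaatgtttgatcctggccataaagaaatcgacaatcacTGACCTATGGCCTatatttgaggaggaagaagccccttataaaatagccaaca
Promoters from 250 bases before to 50 after the start were searched on both strands. The motif was in 6 of 308 promoters of rises that grew (1.95%), in 24 of 8356 of all genes tested (0.287%) and in 96 of all 24206 promoters (0.397%). It was in 0 of 16 peroxisomal beta-oxidation promoters, which says only that these letters are not in those windows. No share is given for induced genes without time dependence. Whether the motif goes with induction or with its growth over time was therefore not tested.

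The lipid synthesis and mitochondrial respiration lists also shifted upward. In lipogenesis and desaturation 11 of 23 measured genes stood higher at 48 h and 1 lower, against 5.27% and 5.54% of all genes. Fads2, the delta-6 desaturase of polyunsaturated fatty acid synthesis, read 1172, 801, 782, 782 and 955 in DMSO and 1428, 1296, 1851, 1305 and 1689 with the drug at 24 h. Later, at 48 h, the readings were 906, 871, 1030, 835 and 730 in DMSO and 4372, 4135, 4219, 5121 and 5594 with the drug. The treated arrays cleared the DMSO arrays at both times, and the gap widened from 1.69-fold to 5.36-fold (1.66 ± 0.2 (SE) log2 units, adjusted p = 5.28e-07). Fads1, the delta-5 desaturase, went from 1.26 to 1.93 while also rising in DMSO by 1.21 log2 units. In the mitochondrial respiration list 19 of 35 genes stood higher and 0 lower, with a median effect of 0.08 at 24 h and 0.31 at 48 h. Sdha and Sdhc, subunits of succinate dehydrogenase, went from 0.14 to 0.57 and from 0.01 to 0.41. These shifts were small, and the counts higher dropped to 3 and 5 after median centring and to 1 and 0 after spike-in scaling. The median time dependence of the 2 lists stayed above 0, at 0.22 and 0.14 after median centring and 0.19 and 0.12 after spike-in scaling. The mitochondrial ribosome list had 2 of 45 higher and 2 lower.

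Rises that grew were led by genes outside the beta-oxidation lists. Cyp17a1, the steroid 17-hydroxylase, read 443, 415, 345, 344 and 384 in DMSO and 1373, 1385, 1386, 1612 and 1654 with the drug at 24 h. At 48 h it read 344, 383, 476, 432 and 380 in DMSO and 4299, 4524, 5645, 4437 and 4466 with the drug. No treated array overlapped a DMSO array, and replicate 3 at 48 h was the highest of its group. The effect grew from 1.94 to 3.54 log2 units (1.59 ± 0.16 (SE), adjusted p = 2.7e-08). Sult1c3, a cytosolic sulfotransferase, read 1238, 1064, 919, 771 and 536 in DMSO and 4030, 3593, 3992, 5056 and 3838 with the drug at 24 h. The 48 h readings were 730, 627, 687, 776 and 746 in DMSO and 10360, 10440, 11264, 12290 and 11937 with the drug. Its effect, 4.68-fold and then 15.8-fold, had the largest time dependence among the named rises (1.75 ± 0.19 (SE), adjusted p = 1.35e-07). Prss23, a serine protease, went from 3.35 to 4.85 (adjusted p = 0.000238). Spc24, a kinetochore subunit, went from 2.22 to 3.54 (adjusted p = 5.02e-11). The cell cycle list had only 2 of 25 higher and 1 lower, against 5.27% and 5.54% of all genes. Bdh1, which makes the ketone body 3-hydroxybutyrate, went from 0.39 to 1.38 (adjusted p = 1.61e-07).

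**Figure D2:**
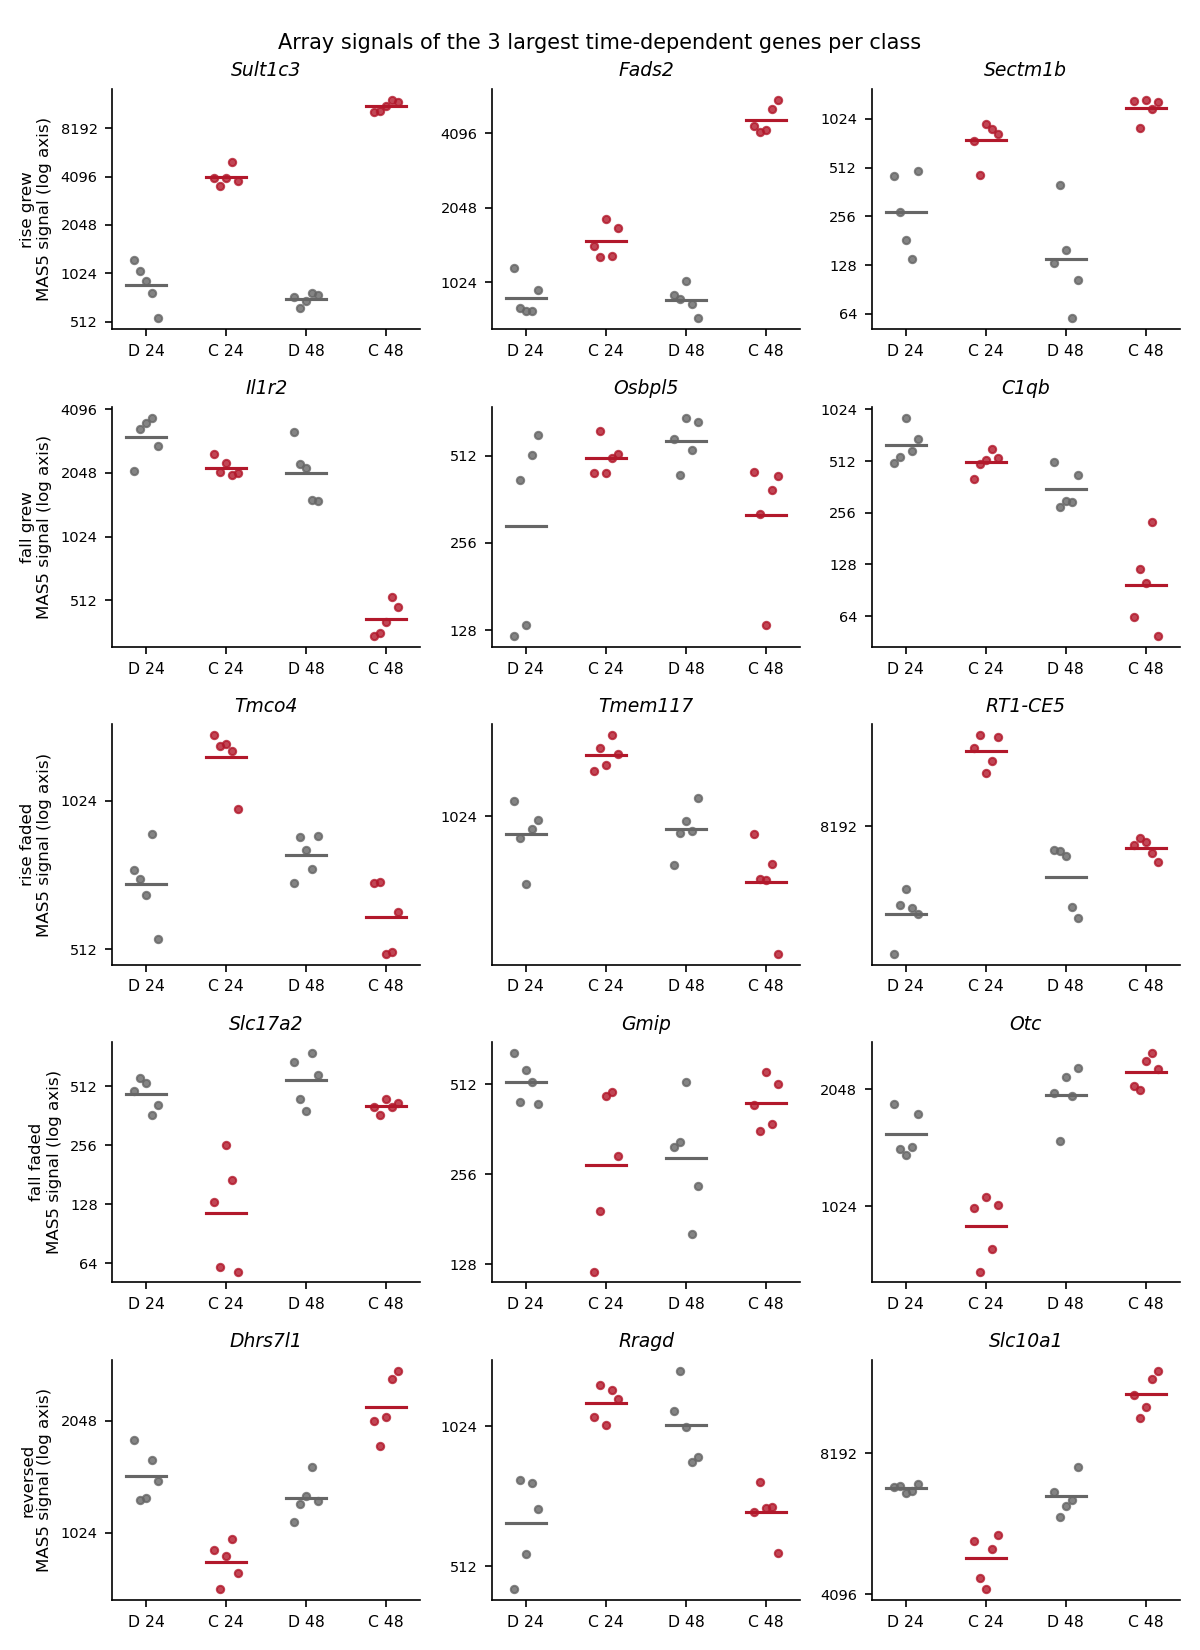
Signals on a log axis for the first 3 named genes of each class, in the 4 groups (D, DMSO; C, 1000 uM clofibrate; 24 or 48 h). Points are single arrays and lines the mean of the log2 values. In the classes that grew, the gap between D and C is wider at 48 h, and in the reversed class C lies on opposite sides of D at the 2 times.

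In the ATF4 list nearly all genes that passed shifted downward. Of its 45 measured genes, 27 stood relatively lower at 48 h and 1 higher, and 62.2% passed, against 10.8% of all genes. At 24 h 18 were above and 7 below DMSO, against 13.4% and 20.5% of all genes. At 48 h 4 were above and 28 below, against 17.1% and 26.8%. The median effect went from 0.1 to -0.37, and the median time dependence was -0.51, beside -0.0062 over all genes. The count lower was 28 after median centring, 27 after quantile normalization and 23 after spike-in scaling, with 0 higher in each. Among the passing genes 7 reversed, 16 were falls that grew and 4 were rises that faded. The exception in direction was Shmt2, a mitochondrial serine hydroxymethyltransferase, which went from 0.13 to 0.38.

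The Atf4 transcript itself read 29285, 29848, 30957, 28957 and 31982 in DMSO and 32822, 31093, 32757, 31123 and 31088 with the drug at 24 h. By 48 h the signals were 28193, 27701, 27166, 30639 and 33733 in DMSO and 21234, 20972, 20377, 20109 and 18644 with the drug. The groups overlapped at 24 h, and at 48 h every treated array lay below every DMSO array. The effect went from 0.07 to -0.54 log2 units (-0.61 ± 0.07 (SE), adjusted p = 6.2e-07). Asns, the asparagine synthetase and a standard ATF4 target, read 7830, 7680, 8250, 8018 and 8818 in DMSO and 11944, 11780, 12724, 12334 and 12359 with the drug at 24 h. After 48 h its values were 7247, 7515, 7898, 9094 and 9590 in DMSO and 6851, 6627, 6456, 6454 and 5493 with the drug. All treated arrays were above DMSO at 24 h and all were below it at 48 h, a reversal from 0.59 to -0.37 (adjusted p of the difference = 2.82e-09). Trib3, a pseudokinase that feeds back on ATF4, read 4948, 5070, 5766, 5394 and 6870 in DMSO and 8164, 7145, 9447, 9377 and 6771 with the drug at 24 h. Later, at 48 h, the readings were 3838, 3669, 4165, 6405 and 4893 in DMSO and 3837, 3511, 3259, 2753 and 2623 with the drug. The groups overlapped at both times, and the effect reversed from 0.54 to -0.51 (adjusted p of the difference = 0.000659). Of its 2 dimmer probe sets 1 passed (-1.13) and 1 did not (-0.24, adjusted p = 0.571).

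The enzymes that load amino acids onto tRNAs mostly shifted downward, with values from -0.76 to -0.01. Of 11 measured synthetases 8 stood lower at 48 h and 0 higher, against 5.54% and 5.27% of all genes. This subset was picked out after the values were seen. Gars1, the glycyl-tRNA synthetase, read 9866, 9885, 10459, 10634 and 11659 in DMSO and 13123, 13744, 13991, 13480 and 14066 with the drug at 24 h, and 9318, 8763, 9032, 11891 and 10391 in DMSO and 8196, 8145, 8676, 8199 and 7938 with the drug at 48 h. All its treated arrays lay above the DMSO arrays first and below them later (adjusted p = 2.31e-06). Mars1 and Sars1, for methionine and serine, reversed from 0.16 to -0.4 and from 0.22 to -0.54. Atf5, a related transcription factor, reversed from 0.22 to -0.45. In the serine and one-carbon branch, Mthfd2, a mitochondrial folate enzyme, read 2397, 2330, 2725, 2429 and 2143 in DMSO and 2318, 3042, 2983, 3278 and 2921 with the drug at 24 h. At 48 h it read 1908, 2226, 2691, 2731 and 3000 in DMSO and 1507, 1143, 1096, 980 and 745 with the drug. The groups overlapped at 24 h and were apart at 48 h (time dependence -1.49 ± 0.19 (SE), adjusted p = 2.56e-06). Phgdh, the first enzyme of serine synthesis, went from 0.04 to -0.92, and Psat1, the next, from 0.43 to -0.1. Ddit3, the stress factor CHOP, did not pass (-0.52 ± 0.18 (SE), adjusted p = 0.0685), with an effect of 0.62 at 24 h and 0.1 at 48 h. Mars1, Sars1, Atf5, Phgdh, Psat1, Ddit3 and Shmt2 were chosen after their values were seen.

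Amino acid carriers had 8 of 22 lower and 2 higher, against 5.54% and 5.27% of all genes. Most of the lower carriers, Slc7a1, Slc6a9, Slc3a2, Slc7a11 and Slc38a2, are also in the ATF4 list and were counted there. Outside it the carriers were mixed: Slc1a4, Slc43a2 and Slc38a4 stood lower, and Slc6a13 and Slc43a1 higher. Slc3a2, the heavy chain of several exchangers, reversed from 0.26 to -0.26. Slc7a11, the cystine carrier, fell further from -0.29 to -1.18. Slc7a1, the cationic amino acid carrier, went from -0.63 to -1.65, but its second probe set did not pass (-0.09, adjusted p = 0.813). Slc43a2, a carrier of branched-chain amino acids, went from -0.31 to -1.81, with its second probe set at -0.57 (adjusted p = 0.0572). Neighbouring stress lists were smaller in count: p53 targets had 6 of 15 lower and 0 higher, led by Gadd45a (0.6 to -0.1), and ER chaperones 3 of 26 lower and 1 higher. Heat shock genes had 5 of 18 lower and 0 higher. After spike-in scaling the counts lower were 3, 0 and 1 in these lists, with 0 higher. Cryab, a small heat shock protein, went from -0.83 to -2.08 (adjusted p = 4.95e-08).

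**Figure D3:**
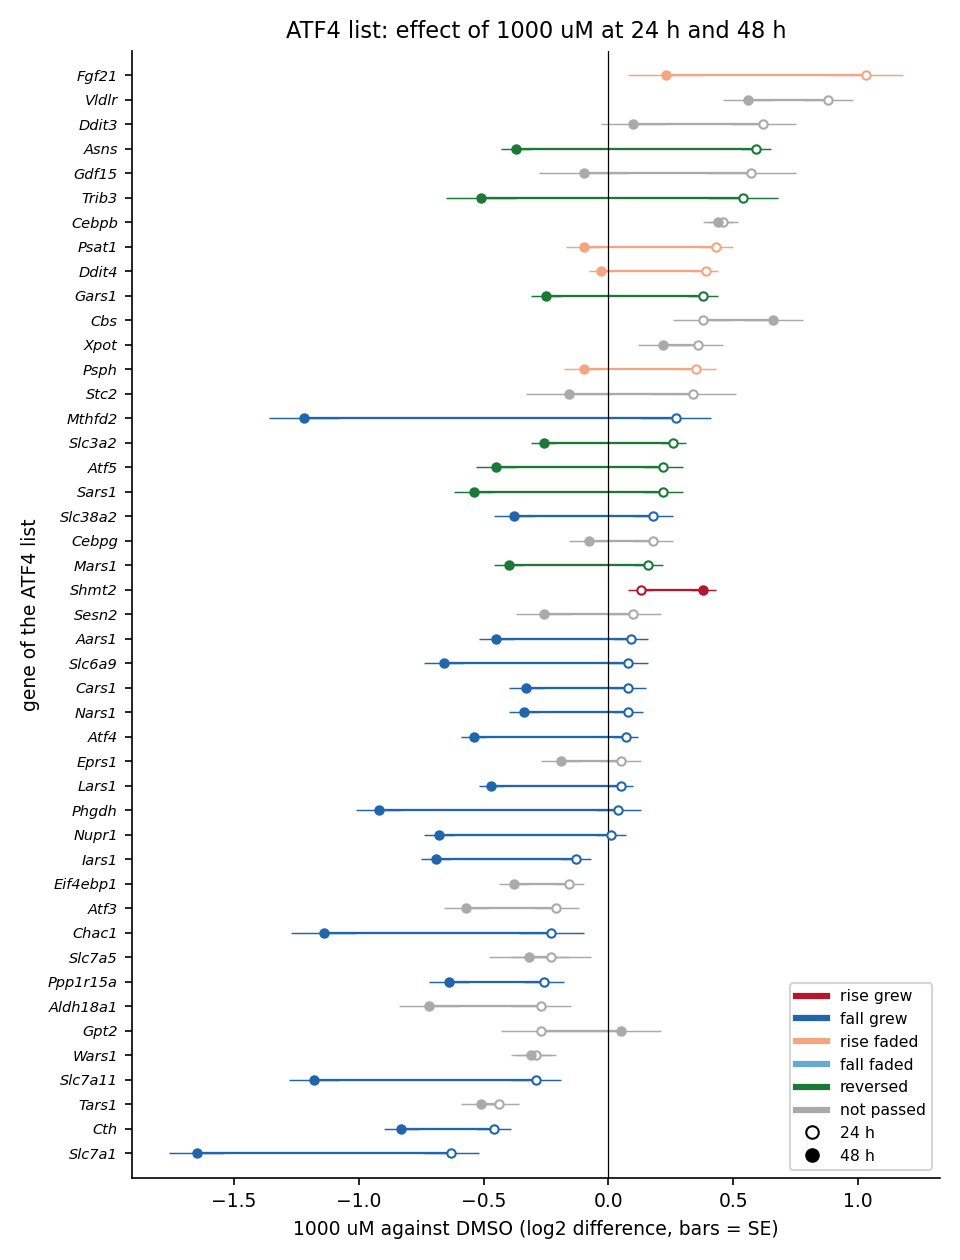
Log2 difference between 1000 uM clofibrate and DMSO for the 45 measured genes of the ATF4 list at 24 h (open) and 48 h (filled), with bars of 1 SE. Most filled points lie to the left of their open partner, and for 7 genes the 2 lie on opposite sides of 0 with both passing.

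The ATF4 element TGATGNAA was searched on both strands of the RefSeq promoters, because these genes moved together. It was in 10 of 25 promoters of list genes that stood lower at 48 h (40.0%), in 1 of 12 of list genes that did not pass (8.33%), in 170 of 8356 of all genes tested (2.03%) and in 905 of all 24206 promoters (3.74%). The list is made of known ATF4 targets, chosen for that, and a match is a description of sequence. The element was in 3 of 21 promoters of reversed genes that were first higher and then lower (14.3%), a set that overlaps the list. The 4 windows printed here show the element in capitals on the strand of the gene, in GRCr8: Trib3 (chr3:161275534-161275594, minus strand), Mars1 (chr7:65023754-65023810, minus), Nupr1 (chr1:190645909-190645996, minus) and Fgf21 (chr1:105221472-105221559, minus). They are shown because they cover a reversal with large effects, a tRNA synthetase, a fall that grew and a rise that faded.
Trib3: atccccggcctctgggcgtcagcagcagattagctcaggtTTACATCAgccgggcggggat
Mars1: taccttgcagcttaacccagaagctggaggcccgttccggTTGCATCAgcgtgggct
Nupr1: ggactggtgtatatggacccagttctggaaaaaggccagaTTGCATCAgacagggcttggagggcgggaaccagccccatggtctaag
Fgf21: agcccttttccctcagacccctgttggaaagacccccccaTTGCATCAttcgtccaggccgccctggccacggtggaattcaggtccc
Counted to its first base, the element begins 21, 17, 55 and 143 bases before the start. In all 4 the sequence TGATGNAA lies on the opposite strand, so the capitals show its reverse complement. Nupr1, a stress-induced chromatin protein, went from 0.01 to -0.68 log2 units (adjusted p = 3.99e-07).

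Genes of amino acid breakdown mostly shifted upward. Of 40 measured urea cycle and catabolic genes, 21 stood relatively higher at 48 h and 5 lower, against 5.27% and 5.54% of all genes. Their median effect was -0.11 at 24 h and 0.13 at 48 h. After median centring the counts were 13 and 5, and after spike-in scaling 6 and 1. Otc, the ornithine carbamoyltransferase of the urea cycle, read 1876, 1434, 1386, 1454 and 1769 in DMSO and 1013, 697, 1080, 794 and 1034 with the drug at 24 h. The 48 h readings were 1997, 1508, 2194, 1965 and 2320 in DMSO and 2091, 2038, 2424, 2535 and 2301 with the drug. All treated arrays were below DMSO at 24 h and the ranges overlapped at 48 h (effect -0.79 and then 0.2, adjusted p of the difference = 9.87e-05). Oat, which degrades ornithine, went from 0.68 to 2 (adjusted p = 8.64e-09). Fah, of tyrosine breakdown, and Aldh4a1, of proline breakdown, reversed from -0.3 to 0.24 and from -0.74 to 0.2. Abat, the transaminase of GABA, recovered from -0.83 to 0.14 (adjusted p = 5.32e-07), but its second, dimmer probe set did not pass (0.13, adjusted p = 0.891).

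Genes of bile acid and drug handling went in several directions. Slc10a1, the bile acid uptake carrier NTCP, read 6946, 6983, 6738, 6795 and 7044 in DMSO and 5339, 4445, 4203, 5127 and 5491 with the drug at 24 h. By 48 h the signals were 6772, 5999, 6329, 6505 and 7663 in DMSO and 10906, 9744, 10298, 11829 and 12297 with the drug. Each treated array was below DMSO at 24 h and above it at 48 h, a reversal from -0.5 to 0.73 (adjusted p of the difference = 4.62e-10). Abcc2, the canalicular export pump MRP2, read 25779, 28839, 29835, 27944 and 29419 in DMSO and 12885, 14546, 13889, 12080 and 11637 with the drug at 24 h. After 48 h its values were 27977, 29880, 26968, 28253 and 28923 in DMSO and 6126, 6414, 5756, 5863 and 5173 with the drug. The DMSO level held while the treated level fell a second time, so the effect deepened from -1.13 to -2.28 (adjusted p of the difference = 3.41e-11). In the bile acid list 3 of 20 genes stood higher and 4 lower, against 5.27% and 5.54% of all genes. Cyp8b1, the sterol 12-hydroxylase, went from 0.52 to 1.22. In the xenobiotic list 9 of 30 stood higher and 2 lower, and 5 and 2 after spike-in scaling.

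Cyp3a2, a major drug-metabolising cytochrome of male rat liver, shows the case in which the solvent cultures moved. It read 5278, 6734, 5851, 8045 and 6915 in DMSO and 6772, 6492, 6777, 7393 and 5531 with the drug at 24 h, and the ranges overlapped. Later, at 48 h, the readings were 1516, 2236, 2048, 2946 and 2633 in DMSO and 5822, 5904, 6617, 5559 and 5826 with the drug, with no overlap. DMSO fell by 1.55 log2 units over time (adjusted p = 5.77e-11) while the treated cultures changed by -0.15 (adjusted p = 0.473), so the effect of 1.42 at 48 h came with a treated level near that of 24 h. Cyp2c11, another male-specific cytochrome, fell further from -0.76 to -1.73, and Cyp3a18 rose from 0.03 to 0.85.

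Several plasma protein genes fell further, as did Il1r2 of the NF-kB inflammation list, most of whose members did not pass. Acute phase proteins had 7 of 24 lower and 1 higher, against 5.54% and 5.27% of all genes. The count lower was 7 after median centring, 12 after quantile normalization and 6 after spike-in scaling. A2m, the acute phase protease inhibitor, read 74264, 85209, 91077, 76587 and 81395 in DMSO and 64074, 63610, 68744, 59284 and 61123 with the drug at 24 h. At 48 h it read 55135, 62039, 59494, 54933 and 58466 in DMSO and 15086, 19280, 17688, 15148 and 15445 with the drug. Both arms fell over time, the treated one far more, and the effect went from -0.36 to -1.82 (adjusted p of the difference = 2.51e-12). Whether A2m signals as bright as those at 24 h change in step with the RNA was not tested. Il1r2, the decoy receptor of interleukin-1, read 2084, 3318, 3544, 3740 and 2743 in DMSO and 2507, 2070, 2273, 1997 and 2042 with the drug at 24 h, with overlap. The 48 h readings were 3197, 2245, 2158, 1520 and 1504 in DMSO and 346, 359, 403, 529 and 473 with the drug, with none, and its time dependence was the largest among the named falls (-1.82 ± 0.23 (SE), adjusted p = 1.91e-06). Complement and coagulation had 9 of 28 higher and 3 lower, but 5 and 4 after median centring and 3 and 2 after spike-in scaling. C5 reversed from -0.21 to 0.47, and C1r fell further from -0.93 to -1.63. Apoa5, an apolipoprotein that lowers plasma triglyceride, deepened from -1.29 to -2.25 (adjusted p = 2.15e-08), and Ahsg, fetuin-A, from -0.33 to -1.24 (adjusted p = 1.24e-11).

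Of 23 measured cytoskeletal and dedifferentiation genes, 9 stood lower at 48 h and 0 higher, against 5.54% and 5.27% of all genes. After spike-in scaling 5 stood lower. From 24 to 48 h in DMSO the members went both ways, for instance S100a6 by -0.29 and S100a11 by 0.52 log2 units. S100a6, a calcium-binding protein, went from -0.91 to -2.28 (adjusted p = 4.62e-10), and Fn1, fibronectin, from -1.44 to -2.21 (adjusted p = 8.38e-09). Procr, the endothelial protein C receptor, read 2190, 2366, 1902, 2519 and 2310 in DMSO and 2687, 2251, 1997, 2039 and 1753 with the drug at 24 h. By 48 h the signals were 2738, 2704, 3571, 3418 and 3509 in DMSO and 1045, 1255, 1328, 892 and 861 with the drug. The effect did not pass at 24 h (-0.08, adjusted p = 0.66) and the groups were apart at 48 h (-1.58). Procr is named for endothelial cells, whose 10 markers on the array had summed signals of 3312 to 3679 with the drug and 2772 to 4108 in DMSO at 48 h, with 0 of 5 tested markers passing. Stellate cell and bile duct markers had 0 of 7 and 0 of 3 passing, and 0 lymphoid markers reached the tested range. The part of other cell types in these changes was not tested, and in bulk RNA fewer cells of a type and less RNA per cell cannot be told apart. Ribosome biogenesis factors had 9 of 37 lower and 0 higher, among them Nop58, a nucleolar scaffold (-0.37 to -0.97).

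Early rises that faded and the remaining reversals were of mixed function. Tmco4 read 740, 709, 660, 877 and 536 in DMSO and 1390, 1323, 1333, 1294 and 987 with the drug at 24 h, and 696, 866, 815, 746 and 868 in DMSO and 697, 702, 501, 506 and 608 with the drug at 48 h. The arrays were apart at 24 h only (0.85, then -0.41; adjusted p of the difference = 0.00043). RT1-CE5, a class I histocompatibility gene, went from 1.02 to 0.18; of its 3 dimmer probe sets 2 passed in the same direction and 1 did not (-0.31, adjusted p = 0.238), and probe sets of this gene family can share targets. Serpine2, a protease inhibitor, stayed induced but less so (6.26-fold and then 3.69-fold), with a rise of 1.32 log2 units over time in DMSO. Rragd, a GTPase that signals amino acid supply to mTORC1, read 457, 786, 545, 774 and 681 in DMSO and 1072, 1256, 1032, 1223 and 1170 with the drug at 24 h. After 48 h its values were 1104, 1347, 1019, 859 and 881 in DMSO and 670, 776, 683, 685 and 547 with the drug. Its arrays did not overlap at either time, and the effect reversed from 0.85 to -0.62 (adjusted p of the difference = 1.91e-06). Dhrs7l1, a short-chain dehydrogenase, reversed the other way, from -0.77 to 0.81 (adjusted p = 4.04e-06), and RT1-N2 from 0.29 to -0.79.

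Some genes that the naming rule chose passed narrowly, with limma adjusted p-values of 0.0294 (Sectm1b) to 0.0385 (Cenpm). They went over 0.05 when 1 of several arrays was left out, while the direction stayed the same. Sectm1b, with a time dependence of 1.64 (adjusted p = 0.0294), had an adjusted p of 0.0539 to 0.0684 without any 1 of 5 arrays: DMSO 24 h replicates 1 and 5, treated 24 h replicate 2, and DMSO 48 h replicates 4 and 5. Hes5, a Notch target, went from -0.56 to 0.94 with a fall in DMSO, and its adjusted p was 0.0508 to 0.0729 without any 1 of 8 arrays: DMSO 24 h replicates 1 and 3, treated 24 h replicates 3 and 5, DMSO 48 h replicates 3 and 4, and treated 48 h replicates 4 and 5. Osbpl5, whose effect passed at neither time, had an adjusted p of 0.0538 to 0.0789 without any 1 of 6 arrays: DMSO 24 h replicates 1 and 3, treated 24 h replicate 2, DMSO 48 h replicates 3 and 5, and treated 48 h replicate 3. C1qb, a complement gene of macrophages and the 1 of 10 tested Kupffer markers that passed, went from -0.32 to -1.86 and had an adjusted p of 0.0517 to 0.0698 without any 1 of 7 arrays: DMSO 24 h replicates 1 and 2, treated 24 h replicate 4, DMSO 48 h replicates 1 and 5, and treated 48 h replicates 1 and 5. Cenpm, a centromere protein, had an adjusted p of 0.0529 to 0.0936 without any 1 of 11 arrays: DMSO 24 h replicates 1, 2 and 3, treated 24 h replicates 2 and 5, DMSO 48 h replicates 1, 2 and 4, and treated 48 h replicates 1, 2 and 5. Slc17a2, a phosphate carrier, Gmip and Ttc36 kept their calls without each array in turn but did not pass under spike-in scaling.

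Over all genes 5.27% stood relatively higher and 5.54% relatively lower at 48 h, and several small counts in the lists that follow lie near those shares. In the NRF2 antioxidant list, genes that defend against oxidants, 5 of 23 stood lower and 3 higher, and after spike-in scaling 4 and 0. Srxn1, the sulfiredoxin, went from an effect of -0.37 at 24 h to -1.05 log2 units at 48 h and Nfe2l2, which encodes NRF2, from -0.3 to -0.72. Iron and heme genes had 5 of 17 higher and 0 lower, among them Slc11a2, the divalent metal carrier (0.16 to 0.82), and 1 higher after spike-in scaling. Cholesterol synthesis had 4 of 20 higher and 0 lower, and 0 higher after spike-in scaling. Among 28 genes of hepatocyte identity 4 stood higher and 2 lower, and Asgr1, the asialoglycoprotein receptor, went from 0.36 to 0.82. In gluconeogenesis and glycolysis 2 of 19 stood higher and 1 lower, and Slc37a4, the carrier of glucose phosphate into the endoplasmic reticulum, went from -0.79 to -0.2. NF-kB inflammation had 1 of 18 higher and 2 lower, interferon genes 0 of 20 higher and 1 lower (Ifit2, -0.6 to -1.25), and YAP and TGF-beta targets 0 of 16 higher and 2 lower (Fn1 and Lox). Growth factor signalling had 2 of 25 higher and 3 lower, among them Myc (-0.63 to -1.22). Lysosome and autophagy genes had 2 of 29 higher and 3 lower, and nuclear receptors and cofactors 1 of 27 higher. Of 30 proteasome subunits 0 passed by limma, with a lowest adjusted p of 0.0539 (Psmb7).

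Over the genes whose effect depended on time, the treated cultures were the arm that moved in most. Between 24 and 48 h, 941 genes (8.85%) changed in DMSO and 2707 (25.5%) with the drug. Of the 1149 time-dependent genes, 793 passed over time only with the drug, 115 only in DMSO, 174 in both and 67 in neither. These counts describe how the contrast is made up, since it is the difference of the 2 arms. In the class of falls that grew 328 of 472 genes moved only with the drug, and in rises that grew 267 of 396.

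**Figure D4:**
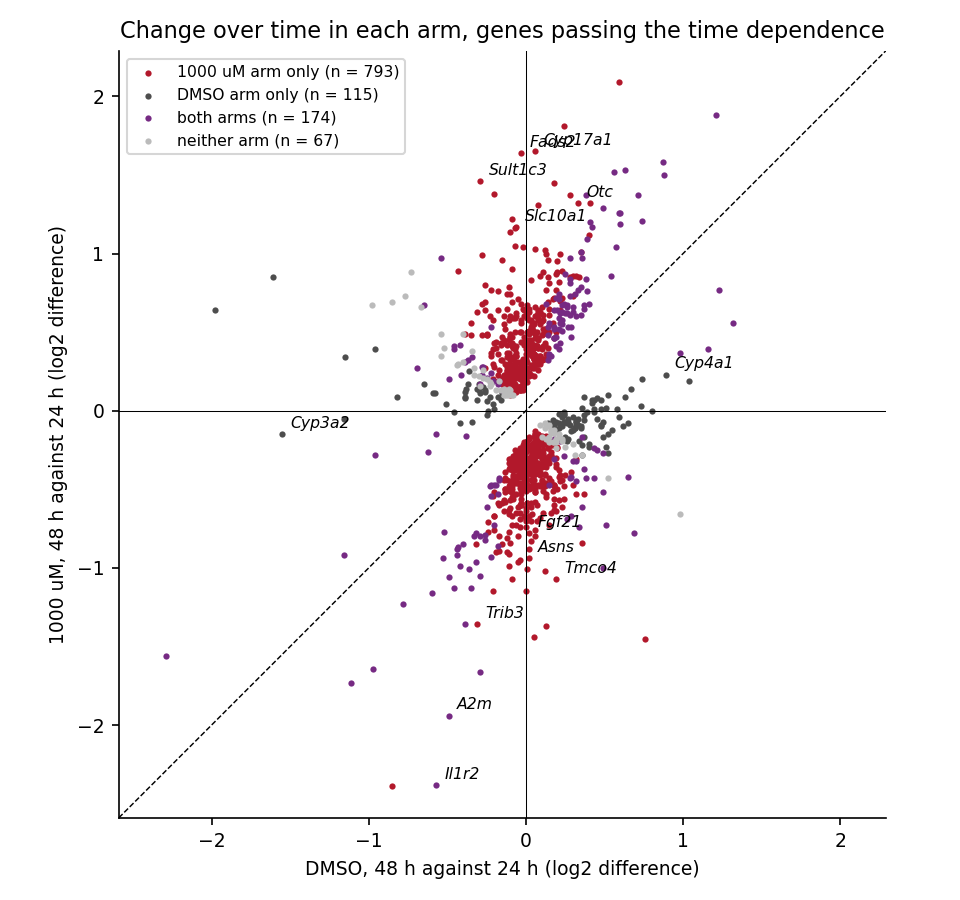
Change from 24 to 48 h in DMSO cultures (x axis) and in 1000 uM cultures (y axis), in log2 units, for the genes whose drug effect depended on time, coloured by the arm that passed. Most points spread along the y axis, with 793 genes passing only in the treated arm and 115 only in DMSO.

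At 60 uM the same contrast passed for 16 of 10627 genes (0.151%). It shares the DMSO arrays with the contrast at 1000 uM, so the values are given side by side. Cyp17a1 had 0.93 at 60 uM and 1.59 at 1000 uM, Fabp1 0.56 and 1.13, Il1r2 -1.28 and -1.82, Retsat 0.28 and 0.52, and S100a6 -0.68 and -1.38. These 5 are among the 16 that passed at 60 uM and were chosen after their values were seen. Asns had -0.35 at 60 uM (adjusted p = 0.157) and Abcc2 -0.19 (adjusted p = 0.575), and 0 of the 45 ATF4 list genes passed there. The time dependence differed between 1000 and 60 uM in 444 genes (4.18%), among them Abcc2 (-0.96, adjusted p = 3.95e-09) and Asns (-0.61, adjusted p = 3.92e-05). This last contrast shares the 1000 uM arrays with the main one.

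**Figure D5:**
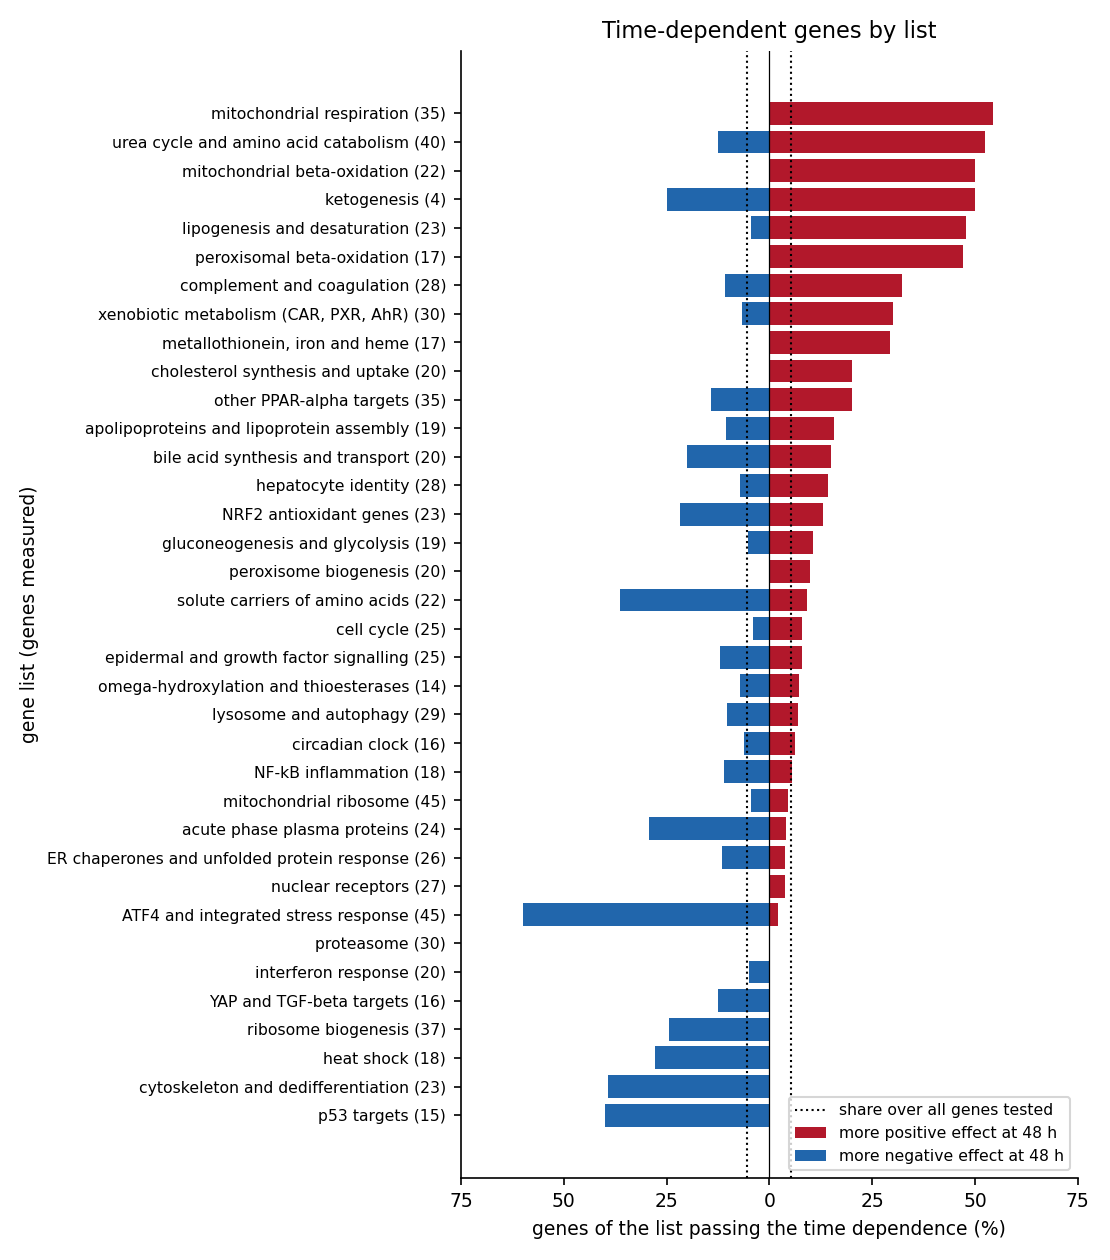
Percent of the measured genes of each list whose 1000 uM effect was relatively higher (red) or lower (blue) at 48 h than at 24 h. Dotted lines mark the shares over all genes, 5.27% and 5.54%. The ATF4 list extends farthest to the lower side, and the mitochondrial respiration and amino acid breakdown lists farthest to the higher side.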

How the data were processed

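Each culture gave 1 biotin-labelled RNA sample, measured on 1 Affymetrix array, per the labels' protocols. The deposited values are each probe set's intensity (MAS5 signal, linear scale), made by the authors with MAS5, per the submitters' processing notes, whose version is not given here. With the top and bottom 2% left out, every array had a mean of 1501, so changes in total RNA per cell are hidden. Control sets (57) were left out.

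Log2 signals with no constant added were fitted in limma 3.58.1 (R 4.3.3), with 1 mean per group over 30 arrays, variances moderated along an intensity trend, and p-values adjusted per comparison by Benjamini-Hochberg; an adjusted p under 0.05 passes. Probe sets above the 40th percentile (a signal of 255) were kept. Symbols came from the platform's gene table, updated through the RefSeq GRCr8 table: 20826 probe sets had 1 symbol, 436 several and 9780 none. Signals per group are means of 5 arrays.

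Named were the 6 largest differences per class with a group mean of at least log2 9, and up to 4 genes per list with the smallest p; exceptions are stated. The members and lists were chosen with earlier results of these data known. The fit was tested on simulated data. Alternatives covered the arrays entered, the filter, 3 scalings, a constant of 64, the variance model, array weights, each array left out and, chosen after seeing the data, a block for sets of array numbers. For 55 other probe sets of named genes, 25 passed with the gene's own probe set, 0 in the opposite direction, and 22 differed in call.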

Additional observations from a re-analysis of the deposited data

Results flagged for a closer look

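For the named class genes and the others with values printed per array, each group of 5 arrays was examined for an array that stands apart from the other 4 by Dixon's test at the 95% level, with a critical value of 0.71. Of 164 groups of 41 genes 10 stood out, and chance gives about 1 in 20. At 48 h with 1000 uM, replicate 3 was high for Cyp17a1 (5645) and low for Osbpl5 (133). In the same group, replicate 5 was high for Abat (3690) and low for Asns (5493) and Mars1 (4548). At 24 h with 1000 uM, replicate 5 was low for Tmco4 (987) and high for Serpine2 (4700), and replicate 3 was high for Sars1 (8022). In DMSO at 24 h, replicate 2 was low for Serpine2 (405) and replicate 1 low for Apoa5 (10051). Of these genes Osbpl5 did not pass without its outlying array (adjusted p = 0.0777).

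The effect of 1000 uM differed between 24 and 48 h in 1544 probe sets by the interaction test. At 60 uM the same test passed for 16 probe sets.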

How the results depend on the processing

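Results are given here as counts of probe sets, with the deposited value first. Spike-in scaling moved the most: the total went from 1544 to 480, higher at 48 h from 776 to 117 and lower from 768 to 363, rises that grew from 547 to 97, falls that grew from 605 to 234, falls that faded from 175 to 14 and reversals from 86 to 41. By arm it gave 277 with the drug only, 98 in DMSO only, 78 in both and 27 in neither, against 1071, 160, 220 and 93. It gave 8 at 60 uM and 58 for 1000 against 60 uM, against 16 and 574. Median centring gave 370 higher, 273 rises that grew, 79 falls that faded, 137 in both arms and 330 for 1000 against 60 uM. At 60 uM, quantile normalization gave 25 and a fit with no intensity trend 10. The cause was not tested. Leaving out each array in turn gave 1315 to 1515 in all, 658 to 751 higher, 650 to 774 lower, 454 to 543 rises that grew, 519 to 606 falls that grew, 109 to 138 rises that faded, 141 to 173 falls that faded and 72 to 94 reversals. By arm it gave 893 to 1060, 133 to 161, 180 to 219 and 70 to 101, with 11 to 21 at 60 uM and 461 to 596 for 1000 against 60 uM. The array numbers in the titles fall into 5 sets of 6, each with 1 array of every group. With these sets as a replicate block, an alternative chosen after seeing the data, 1639 passed, 1512 of them among the 1544, and 25 at 60 uM. Acot1, Tgfbi and Ddit3 passed there and no other named gene changed its call. Deviations from group means correlated at -0.051 to 0.11 (median 0.0056) over the 75 pairs of arrays from 1 set. The median was -0.0027 over the 300 pairs from different sets and groups. Of 30 arrays, 11 were closest to their own set. The labels do not say what the numbers stand for, and whether arrays of a set share more than a number was not tested. Acot1 had a group mean under the floor.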
